A study of Mus musculus with 4 samples.

Results

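The metallothionein genes Mt1 and Mt2 and 5 genes of copper handling (Cp, Atp7a, Atox1, Ccs and Commd1) were followed in mouse embryonic fibroblasts with and without the X-linked inhibitor of apoptosis protein, encoded by Xiap. Members were the probe sets whose platform annotation lists exactly 1 gene symbol, that symbol being 1 of these 7. All 7 genes were on the array, and they were read by 12 of its 12488 probe sets, which carry single symbols for 8251 genes. Mt1, Mt2, Cp, Atox1 and Commd1 had 1 probe set each, Atp7a had 2 and Ccs had 5.

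Total RNA was profiled on 4 single-colour Affymetrix U74Av2 arrays. The groups were Xiap knockout fibroblasts with tumour necrosis factor (TNF), unstimulated Xiap knockout fibroblasts, wild-type fibroblasts with TNF and unstimulated wild-type fibroblasts, with 1 array in each. TNF, an inflammatory cytokine that signals through NF-kB, was given to confluent cultures at 20 ng/ml for 4 hours. The sources used here do not state the knockout allele, the mouse strain, the embryonic age or the number of embryos behind a culture. With 1 array a group, no single ratio below has a replicate check.

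Metallothioneins are small, cysteine-rich proteins that bind zinc and copper. Their genes are switched on by the zinc-sensing transcription factor MTF-1 through short promoter sequences called metal response elements, and also by glucocorticoids and inflammatory cytokines. Copper that enters a cell is passed on by chaperones: ATOX1 carries it to the pump ATP7A, which moves it into the secretory pathway or out of the cell, and CCS loads it into superoxide dismutase 1. Ceruloplasmin (Cp) is a secreted copper ferroxidase made mainly by the liver, and COMMD1 takes part in copper export and in the turnover of NF-kB. In human cells, XIAP protein binds COMMD1 and CCS and attaches ubiquitin to them, and XIAP itself can receive copper through CCS. The arrays measure RNA only, and say nothing of those protein contacts.

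The upstream sequences of both metallothionein genes are shown because metal response elements are the known control of these genes, whose values the results turn on. Each window runs from 250 bases before to 50 bases after 1 transcript start annotated by RefSeq on mouse build GRCm38.p6. Mt1 lies at chr8:94178839-94179138 and Mt2 at chr8:94172368-94172667, both on the plus strand. Capitals mark the core letters of a metal response element, searched as TGCGCNC and TGCACNC on both strands.
Mt1: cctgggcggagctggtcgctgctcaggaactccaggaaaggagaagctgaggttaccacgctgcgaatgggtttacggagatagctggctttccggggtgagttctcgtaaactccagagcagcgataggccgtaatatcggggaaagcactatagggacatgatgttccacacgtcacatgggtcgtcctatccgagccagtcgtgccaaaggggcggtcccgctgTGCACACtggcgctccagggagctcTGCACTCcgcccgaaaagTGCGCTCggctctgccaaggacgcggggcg
Mt2: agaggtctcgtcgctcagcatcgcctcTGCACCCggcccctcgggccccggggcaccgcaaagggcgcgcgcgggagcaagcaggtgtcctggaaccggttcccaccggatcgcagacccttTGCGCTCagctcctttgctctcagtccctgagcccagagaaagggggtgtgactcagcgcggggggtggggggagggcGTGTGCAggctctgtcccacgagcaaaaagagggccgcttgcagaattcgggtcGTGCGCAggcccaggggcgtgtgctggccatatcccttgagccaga

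The Mt1 window held 3 such cores, all on the strand of the gene, beginning at bases -23, 3 and 21 from the start. The Mt2 window held 4, of which those beginning at -223 and -128 were on the strand of the gene and those at -50 and 5 on the opposite strand. Of 32851 RefSeq promoter windows of the same length, 1.97% held at least 3 cores and 0.517% at least 4, while 25.7% held at least 1. Promoter windows were matched by symbol for 6 of the 7 genes, all but Ccs. The window of Atp7a held 2 cores, each of the windows at 2 starts of Commd1 held 1, and those of Atox1 and of 2 starts of Cp held none. No core overlapped another. A match of letters is a description and does not show that a factor binds there. Bases outside the windows were not searched, so these counts are not totals for a gene. Whether an annotated start is the one used in these cells was not tested.

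**Figure D1:**
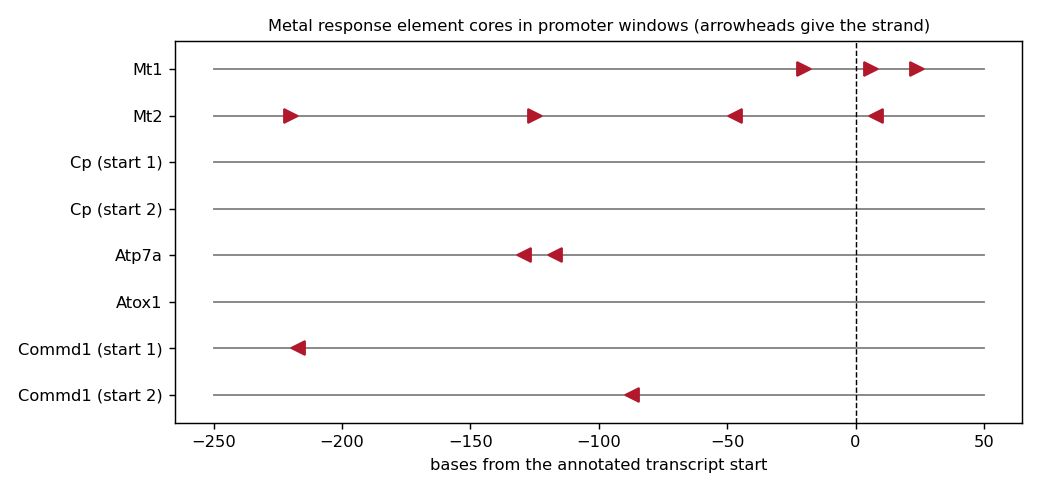
Position of metal response element cores (arrowheads, pointing along the strand that holds the core) in promoter windows, on an axis of bases from the annotated transcript start (dashed line at 0). The window of Mt1 carries 3 cores and that of Mt2 carries 4, while the windows of Atox1 and Cp carry none.

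Values are probe set signals, linear intensities that the authors made with MAS5. The 40th percentile of all non-control signals, 92.5, was used as a floor, below which signals have no order here. A comparison covers the probe sets with 1 or more of its arrays above that floor, called measured here, and ratios were taken on floored signals and given on the log2 scale, where 1 means 2-fold. Of the 12 probe sets, 8 were above the floor on all 4 arrays, 2 on some, and 2, both of Ccs, on none.

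The arrays had median signals of 172.4 (knockout with TNF), 178.3 (knockout, unstimulated), 150.0 (wild-type with TNF) and 182.0 (wild-type, unstimulated). The NF-kB target Nfkbia, read as a check of the TNF labels, was 5.91-fold higher with TNF in knockout and 6.20-fold higher in wild-type cells. Ccl2, a chemokine gene, was 104-fold higher with TNF in knockout and 12.8-fold higher in wild-type cells. Its signals with TNF were close, at 18083 in knockout and 18414 in wild-type cells. The folds differed through the unstimulated arrays, at 173.4 in knockout and 1439 in wild-type cells. Xiap had signals of 120.1 and 180.5 in knockout cells with and without TNF, against 125.7 and 239.0 in wild-type cells with and without TNF. Whether its probes lie in the deleted part is unknown, so it does not check the genotype labels. All 8 fibroblast markers were above the floor on at least 1 array, with summed signals of 55986 to 62174. Hepatocyte markers were above it in 0 of 4 cases, epithelial markers in 1 of 4 (Cdh1), endothelial in 2 of 4 (Pecam1 and Kdr) and macrophage markers in 3 of 5 (Cd68, Csf1r and Lyz2). Summed macrophage marker signals were 543.7 and 640.3 in knockout cells with and without TNF, against 277.4 and 553.9 in wild-type cells, and their part in the results below was not tested. Xist, the RNA of the inactive X chromosome, had signals of 1601 and 1232 in the knockout cultures and 5.4 and 34.3 in the wild-type cultures, and the Y-linked Eif2s3y had 9.1 and 2.8 against 308.2 and 489.4. The cultures therefore differed in more than Xiap, and a genotype difference here cannot be told apart from any other difference between these cultures.

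Mt2 had the widest TNF response of the members in knockout cells. Its signal (probe set 101561_at) was 11444 in knockout cells with TNF, against 4785 in unstimulated knockout cells. In wild-type cells it was 8624 with TNF and 5817 without. Both TNF arrays thus stood above both unstimulated arrays, and the knockout culture held both the highest and the lowest value. Mt2 was 2.39-fold higher with TNF in knockout cells (log2 1.26) and 1.48-fold higher in wild-type cells (log2 0.57). It was the only 1 of 9 measured member probe sets at least 2-fold higher with TNF in knockout cells, where 1.57% of 7764 measured probe sets were. None was at least 2-fold lower, as 0.399% were. A ratio at least as high as that of Mt2 was found for 1.12% of those probe sets in knockout cells, and for 6.39% of 7846 in wild-type cells.

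The TNF response of Mt2 was larger in knockout than in wild-type cells by 0.69 on the log2 scale. This difference was 0.76 with quantile normalization and 0.46 with equal medians, where the wild-type ratio of Mt2 was 0.85. Of 6664 probe sets above the floor on all 4 arrays, 6.83% had a difference of at least 0.69 in the same direction. No test of the difference is possible with these arrays. No member differed 2-fold in response, where 2.13% of these probe sets had a response at least 2-fold larger and 0.765% at least 2-fold smaller in the knockout. With TNF, Mt2 was 1.33-fold higher in knockout than in wild-type cells (log2 0.41). Without TNF, the ratio between the genotypes was -0.28 in log2 units.

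A single test was available for each factor: an additive model of genotype and TNF fitted with limma to the 4 arrays and all 8228 measured probe sets, which treats a difference of response as error. In this limma fit Mt2 had a TNF effect of 0.91 on the log2 scale (SE 0.16, 95% interval 0.52 to 1.30). Intervals given here are not adjusted for the number of probe sets. The adjusted p of this effect in limma was 0.0725 after Benjamini-Hochberg adjustment, over the threshold of 0.05. The effect had the same direction in both genotypes. Over the alternatives tried, this adjusted p from limma ran from 0.00131 to 0.292, and it passed with quantile normalization (0.0445), with equal medians (0.00131) and among probe sets above the floor on all 4 arrays (0.00562). The genotype effect of Mt2 was 0.06 (SE 0.16, 95% interval -0.33 to 0.45, adjusted p = 0.833 in the limma fit).

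Mt1 followed another order. Its signal (93573_at) was 4958 in knockout cells with TNF and 3498 in unstimulated knockout cells, against 6366 and 5927 in wild-type cells with and without TNF. Both knockout values lay below both wild-type values. The log2 ratio between the genotypes was -0.36 with TNF. Without TNF it was -0.76, a 1.69-fold lower signal in the knockout. In the limma fit Mt1 fell by 0.56 on the log2 scale in the knockout (SE 0.12, adjusted p = 0.0217), lower in 2 of 2 pairs of arrays. It was the only 1 of 10 member probe sets that passed for genotype. Calls for genotype were frequent on these arrays: 9.18% of all 8228 probe sets were lower and 10.2% higher at this threshold, and 33.6% had an unadjusted p under 0.05. Without the intensity trend in the variance prior the call was lost (adjusted p = 0.108 in limma, range 0.00475 to 0.108 over the alternatives).

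The TNF response of Mt1 was smaller than that of Mt2 in each genotype, a difference that was not tested. Mt1 was 1.42-fold higher with TNF in knockout cells (log2 0.50). In wild-type cells the log2 ratio was 0.10, less than the 0.17 that the fit gives as the SD of a difference between 2 arrays, and it turned to -0.02 with quantile normalization and to 0.38 with equal medians. The TNF effect of Mt1 over both genotypes was 0.30 (SE 0.12, adjusted p = 0.334 in the limma fit). Of 7764 probe sets, 5.23% had a ratio at least as high as that of Mt1 in knockout cells.

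Mt1 and Mt2 are next to each other among the protein-coding genes of chromosome 8 in the RefSeq table, beside Mt3 and Mt4. Their coding sequences are closely related, so their probe sets may share hybridisation, and how far they do was not tested. Mt3, a metallothionein known mainly from brain, had signals of 726.6 and 768.3 in knockout cells with and without TNF, against 830.8 and 916.3 in wild-type cells. Mt4, known from squamous epithelium, stayed below the floor on every array, between 9.2 and 12.0. These 2 genes are given for their position and were picked from the zinc list after their values were seen.

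**Figure D2:**
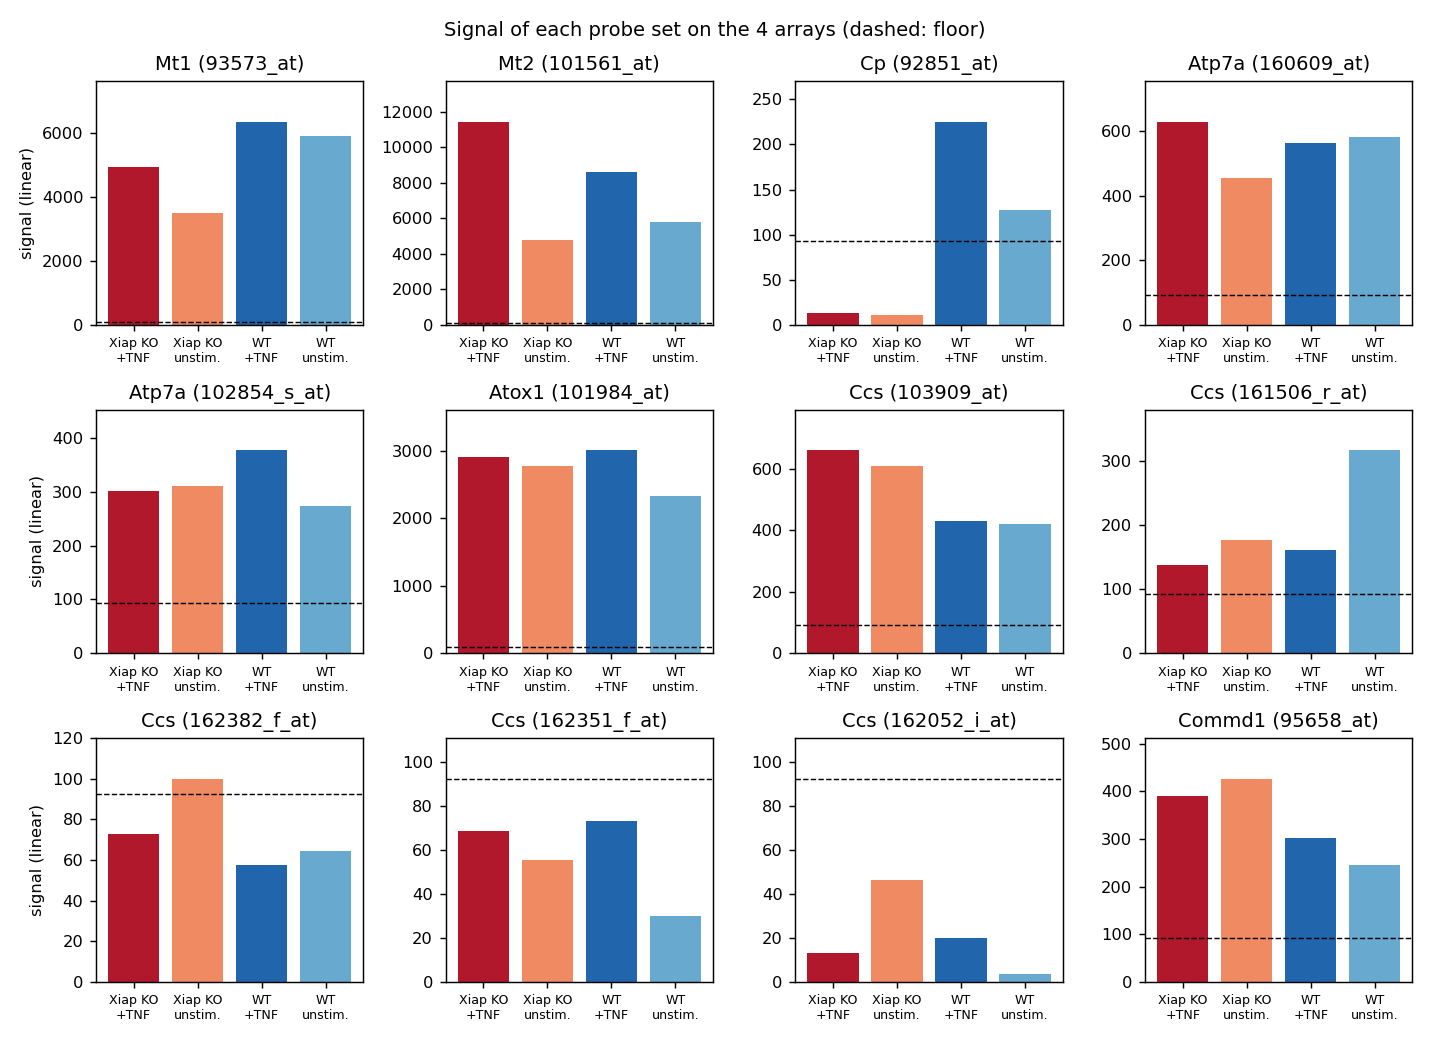
Signal (linear scale, each panel with its own axis from 0) of all 12 probe sets on the 4 arrays, 1 bar for each array, with Xiap knockout (red, TNF then unstimulated) left of wild-type (blue, TNF then unstimulated) and the floor of 92.5 dashed. Mt2 is highest on the TNF array of each genotype, Mt1 is lower on both knockout arrays, and Cp is below the floor on both knockout arrays.

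Likeness of profile was measured as the Euclidean distance between log2 signals centred on their mean over the 4 arrays, among 5130 genes above the floor on every array. Closest to Mt2 were Hivep1, a zinc finger transcription factor gene (distance 0.13), Lbp, which encodes the lipopolysaccharide-binding protein (0.20), the transporter gene Abcc3 (0.221), the atypical chemokine receptor gene Ackr3 (0.265) and Mvp, the major vault protein gene (0.288). Lbp, for example, had signals of 521.6 and 210.5 in knockout cells with and without TNF, against 364.4 and 220.4 in wild-type cells. Closest to Mt1 were the proteasome subunit gene Psmb2 (0.043), Acin1 (0.062), Abca2 (0.072), Acy3 (0.088) and Pdpn (0.088). Neither metallothionein was among the 5 genes nearest to the other (distance 0.884). Among the 5130 genes compared, Mt1 was at rank 608 from Mt2, and Mt2 at rank 2955 from Mt1. These distances rest on 4 arrays that share cultures by genotype, and they describe the arrays only.

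Ceruloplasmin RNA separated the genotypes, at low signals. Cp (92851_at) had signals of 13.2 and 10.5 in knockout cells with and without TNF, both below the floor. In wild-type cells it had 225.3 with TNF and 127.8 without. Both wild-type arrays lay above the floor and both knockout arrays below it. Cp was thus at least 2.44-fold lower in knockout than in wild-type cells with TNF, and at least 1.38-fold lower without. It was the only 1 of 9 measured member probe sets at least 2-fold lower with TNF, as were 4.97% of 7754 measured probe sets, and none was at least 2-fold higher, as 5.83% were. In unstimulated cells none of 10 member probe sets was 2-fold higher or lower on floored signals, where 4.53% and 4.58% of 8060 were. Cp is counted there by its bound, so this does not show a change under 2-fold. Its unstimulated log2 ratio was -2.64 with the floor at the 20th percentile and -2.44 with no floor and log2(signal + 16).

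Within wild-type cells Cp was 1.76-fold higher with TNF (log2 0.82), and 3.79% of 7846 measured probe sets had a ratio as high. This log2 ratio passed 2-fold with quantile normalization (1.09) and with equal medians (1.1). Its knockout response has no value, since both knockout arrays were below the floor. On floored values the limma fit gave Cp a genotype effect of -0.88 (SE 0.24, adjusted p = 0.052), which rests on the floor. With the floor at the same percentile it passed with equal medians (-0.93, adjusted p = 0.000166 in limma, where the prior degrees of freedom were infinite). It also passed with 1 probe set a gene (adjusted p = 0.0475 in limma), and its highest adjusted p over the alternatives was 0.0884. With the floor at the 20th percentile, 20.5, it was -3.05 (adjusted p = 0.00356 in limma), and with no floor and log2(signal + 16) it was -2.74 (adjusted p = 0.00649 in limma). In bulk RNA, fewer cells that make Cp and less Cp RNA per cell cannot be told apart.

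Among the copper chaperones, Ccs and Atox1 differed in pattern. The brightest probe set of Ccs (103909_at) had signals of 660.2 and 608.5 in knockout cells with and without TNF, against 428.9 and 420.5 in wild-type cells. Both knockout values stood above both wild-type values, and the log2 ratios with TNF, 0.12 in knockout and 0.03 in wild-type cells, were below the SD of a difference between 2 arrays, 0.24. With equal medians the wild-type ratio was 0.31, above that SD. The ratio of knockout to wild-type was 1.54-fold with TNF and 1.45-fold without. In the limma fit the genotype effect was 0.58 (SE 0.17, 95% interval 0.17 to 0.98), with an adjusted p of 0.0587. That p passed with quantile normalization (0.047) and among probe sets above the floor on all 4 arrays (0.0296 in limma), and ran up to 0.105 over the alternatives.

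The second probe set of Ccs differed in pattern. It (161506_r_at) had 137.2 and 177.0 in knockout cells with and without TNF, against 160.8 and 317.0 in wild-type cells. It stood highest in unstimulated wild-type cells, and the other 3 arrays were within the SD of a difference from their neighbours, 0.35. Its log2 ratio with TNF was -0.37 for the knockout and -0.98 for the wild-type culture, and its genotype effect in the limma fit was -0.53 (SE 0.24, adjusted p = 0.185), opposite in sign to that of the brightest probe set. It passed with equal medians (-0.62, adjusted p = 0.0436 in limma), and its adjusted p ran up to 0.332 over the alternatives. Another (162382_f_at) was above the floor only in unstimulated knockout cells, at 100.1. The remaining 2 (162351_f_at and 162052_i_at) were below it on every array, at 3.3 to 73.2. The letters r, f and i in these names are Affymetrix marks for probe sets that could not meet the usual rules of probe choice or that match a sequence family.

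Atox1 varied little. Its signals (101984_at) were 2913 and 2778 in knockout cells with and without TNF, against 3014 and 2335 in wild-type cells. Unstimulated wild-type cells were lowest, and the other 3 arrays lay within 0.16 of their neighbours on the log2 scale, the SD of a difference. The log2 ratio with TNF was 0.07 in knockout and 0.37 in wild-type cells. With equal medians the wild-type ratio was 0.65. The limma fit gave a TNF effect of 0.22 (95% interval -0.05 to 0.48, adjusted p = 0.43) and a genotype effect of 0.10 (95% interval -0.17 to 0.37, adjusted p = 0.583). These intervals, on the scaling as deposited, leave out changes of 2-fold in either direction, as far as 4 arrays without replicate cultures can.

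The copper pump gene Atp7a, which is X-linked like Xiap, had 2 probe sets with different courses. The brighter (160609_at) had 630.1 and 455.0 in knockout cells with and without TNF, against 563.2 and 581.2 in wild-type cells. The dimmer (102854_s_at) had 300.7 and 310.5 in knockout cells with and without TNF, against 377.5 and 273.2 in wild-type cells. The log2 ratio with TNF was 0.47 in knockout and -0.05 in wild-type cells for the first, and this wild-type value turned to 0.24 with equal medians. For the second it was -0.05 in knockout and 0.47 in wild-type cells, and this wild-type value was 0.75 with equal medians. Both had a TNF effect of 0.21 in the limma fit (SE 0.19 and 0.23, adjusted p = 0.632 and 0.706). Genotype effects were -0.10 (95% interval -0.56 to 0.37) for the brighter and -0.07 (-0.63 to 0.49) for the dimmer probe set.

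Commd1 was higher in the knockout cultures without passing the test. Its signals (95658_at) were 389.9 and 427.0 in knockout cells with and without TNF, against 302.1 and 245.1 in wild-type cells. Both knockout arrays stood above both wild-type arrays. Commd1 was 1.29-fold higher in knockout than in wild-type cells with TNF and 1.74-fold higher without. The genotype effect was 0.58 in the limma fit (SE 0.22, 95% interval 0.05 to 1.12, adjusted p = 0.121), and the TNF effect was 0.09 (SE 0.22, adjusted p = 0.885).

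**Figure D3:**
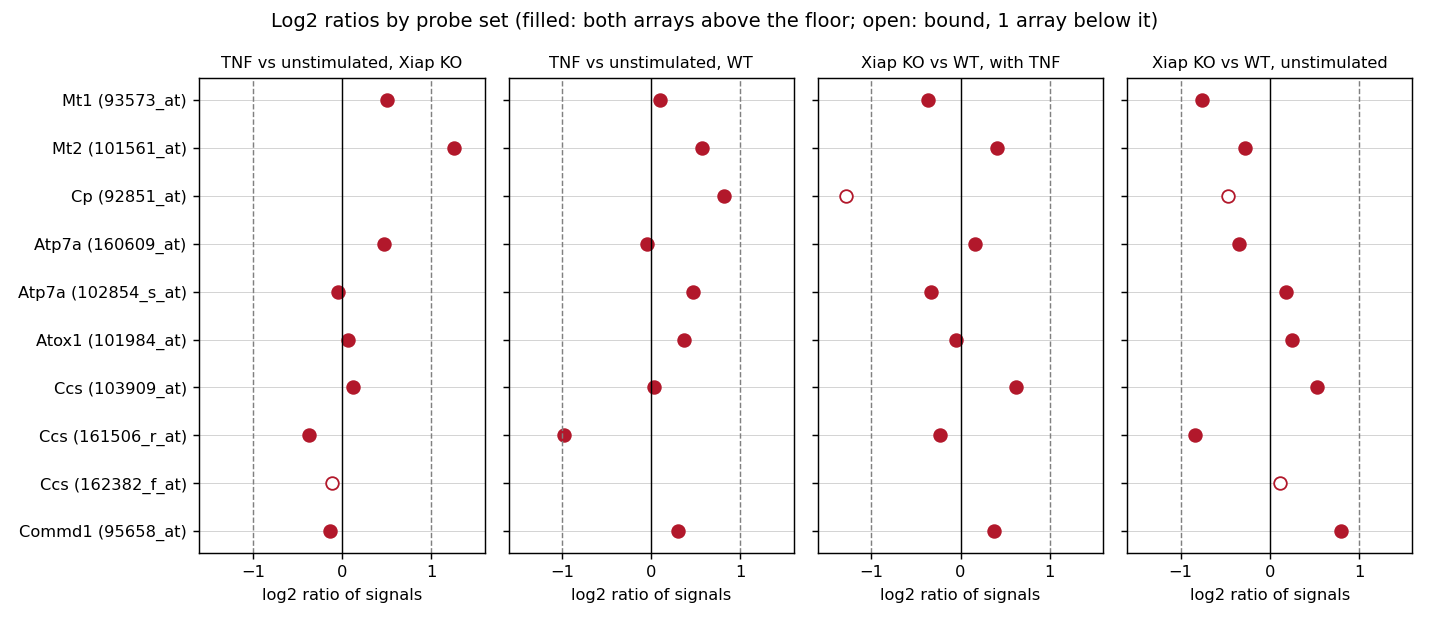
Log2 ratios of signals for the 10 probe sets above the floor on at least 1 array, in the 4 comparisons of 2 arrays, with dashed lines at 2-fold and open circles for bounds. Only Mt2 with TNF in the knockout and Cp in the knockout with TNF lie beyond 2-fold as drawn. Ratios drawn as bounds, that of Cp in unstimulated cells among them, may be larger than shown.

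The member probe sets were also set beside all measured probe sets as a list. With TNF in knockout cells the median log2 ratio of the 9 measured members was 0.07, against -0.05 over all measured probe sets. In wild-type cells it was 0.30, against -0.10, and 0 of 9 members were at least 2-fold higher or lower, where 2.54% and 2.79% of 7846 were. Between the genotypes the member median was -0.05 with TNF, against 0.08 over all, and -0.08 without TNF, against -0.02. No member passed the limma fit for TNF, in which 1.08% of 8228 probe sets were called higher and 0.0851% lower, and 13.7% had an unadjusted p under 0.05. Mt1, Mt2 and the second Ccs probe set were the members under that unadjusted level.

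**Figure D4:**
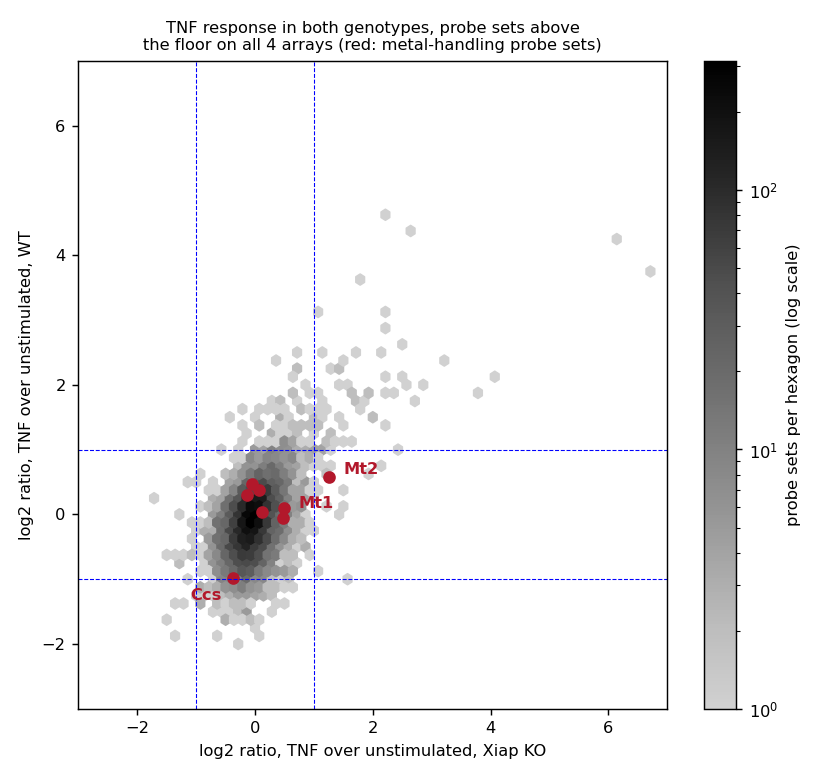
TNF response in knockout (x axis) against wild-type cells (y axis), both as log2 ratios of TNF to unstimulated signal, for the 6664 probe sets above the floor on all 4 arrays (grey hexagons, count on a log scale), with the 8 member probe sets in red. Mt2 lies at 1.26 and 0.57, to the right of the bulk of probe sets, and the point labelled Ccs is its second probe set at -0.37 and -0.98.

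Other genes of metal handling were read from 6 lists, each gene by its brightest probe set. The counts that follow are calls of the limma fit, in which 10.2% of all 8228 probe sets rose and 9.18% fell in the knockout, and 1.08% rose and 0.0851% fell with TNF. The copper list held transporters, chaperones and the transcription factor genes Mtf1 and Sp1. Of its 6 measured genes, 0 rose and 2 fell in the knockout in the limma fit, and 0 passed for TNF. The 2 were Cox17, which carries copper to cytochrome oxidase (-0.63, adjusted p = 0.00853), and Cuta (-0.89, adjusted p = 0.00207), both named after their values were seen. The copper importer gene Slc31a1, also named after its values were seen, had 1038 and 1415 in knockout cells with and without TNF, against 1334 and 1444 in wild-type cells, and passed neither test. Slc25a3, the mitochondrial phosphate carrier that also brings in copper, passed no test. It had 257.2 and 183.1 in knockout cells with and without TNF, against 107.0 and 228.2 in wild-type cells.

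Of 12 measured copper-dependent enzymes and cytochrome oxidase subunits, 2 rose and 1 fell in the knockout (10.2% and 9.18% over all), and 0 passed for TNF. Sod3, the extracellular superoxide dismutase gene, had 1705 and 894.4 in knockout cells with and without TNF, against 135.3 and 203.4 in wild-type cells, and rose by 2.90 in the limma fit (SE 0.35, adjusted p = 0.00329). Pam, which encodes an enzyme that amidates secreted peptides, exceeded its wild-type signal in the knockout at least 5.22-fold with TNF and at least 4.57-fold without. Sod1, the enzyme that CCS supplies, fell by 0.53 (SE 0.10, adjusted p = 0.0144 in limma) and is named after its value was seen.

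The zinc list held zinc transporters, other metallothioneins and Mtf1. Of its 12 measured genes, 1 rose and 1 fell in the knockout (10.2% and 9.18% over all) and 0 passed for TNF. Slc30a5, a zinc transporter of the secretory pathway, rose by 1.16 (SE 0.20, adjusted p = 0.0113 in limma), and Slc39a7, named after its value was seen, fell by 0.36 (adjusted p = 0.0443). Mtf1, the gene of the zinc sensor itself, had 289.3 and 250.1 in knockout cells with and without TNF, against 245.7 and 303.4 in wild-type cells (TNF adjusted p = 0.951 and genotype adjusted p = 0.966 in limma), and is named after its values were seen. Of 10 measured genes of COMMD proteins and their partners, 0 rose and 2 fell in the knockout (10.2% and 9.18% over all). Washc2, a subunit of the endosomal WASH complex, fell by 1.07 (SE 0.12, adjusted p = 0.00241 in limma), and Commd4, named after its value was seen, fell by 0.65 (adjusted p = 0.0197). Commd9 passed no test and had 369.9 and 489.9 in knockout cells with and without TNF, against 294.7 and 631.1 in wild-type cells. Its other probe set gave a log2 ratio with TNF of -0.20 in wild-type cells, against -1.10 for the brightest.

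Of 11 measured iron genes, 1 rose with TNF in the limma fit (1.08% over all), and 0 rose and 2 fell in the knockout (10.2% and 9.18% over all). The gene that rose with TNF was Slc11a2, an importer of ferrous iron and other divalent metals, by 1.30 (SE 0.15, adjusted p = 0.0183 in limma, higher in 2 of 2 pairs of arrays). Its other probe set had smaller log2 ratios, 0.82 in knockout and 0.47 in wild-type cells. Hp, the haptoglobin gene, had 347.1 and 210.3 in knockout cells with and without TNF, against 1148 and 382.5 in wild-type cells, and fell by 1.29 in the knockout (SE 0.25, adjusted p = 0.0168 in limma). Its log2 ratio with TNF was 0.72 in knockout and 1.59 in wild-type cells, and its TNF effect did not pass (1.15, adjusted p = 0.123 in limma). The second gene to fall was Hmox1, heme oxygenase (-0.60, adjusted p = 0.00768), named after its value was seen.

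Of 14 measured oxidative stress genes, 1 rose with TNF (1.08% over all), and 1 rose and 4 fell in the knockout (10.2% and 9.18% over all). Sod2, the mitochondrial superoxide dismutase gene and a known NF-kB target, rose with TNF by 1.72 (SE 0.15, adjusted p = 0.00467 in limma). Gpx3, a secreted glutathione peroxidase gene, had 651.9 and 775.7 in knockout cells with and without TNF, against 5635 and 6162 in wild-type cells. The others to fall were Hmox1, Nqo1 and Sod1, and the gene that rose was Gpx4, all named after their values were seen. Hmox1, Sod1 and Mtf1 each stand on 2 of the lists.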

How the data were processed

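Sample titles gave the groups. The intensities that the authors deposited are MAS5 signals of probe sets, not log-transformed, per the submitters' processing notes and the values; the MAS5 version was not given in the sources used here. All 4 columns share a trimmed mean of 500.3 (2% left out at each end), so they were used as deposited. Probe sets were named from the platform annotation (10833 with 1 symbol, 396 with several, 1193 with none), and 66 control probe sets were left out. Signals were raised to the floor and converted to log2. A difference of response was taken only where all 4 arrays were above the floor.

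The additive fit used limma 3.58.1 in R 4.3.3 (lmFit and eBayes, 2-sided, the prior variance following intensity, and Benjamini-Hochberg adjustment over 8228 probe sets). It has 1 residual and 5.37 prior degrees of freedom. Its SEs, intervals and p-values thus rest mostly on the spread pooled over probe sets and have no replicate cultures behind them. Alternatives were another floor, no floor, quantile normalization, equal medians, probe sets above the floor on every array, no intensity trend and 1 probe set a gene. The members and lists were chosen with earlier results of these data known. Named genes were all members, Xiap, Nfkbia, Ccl2, up to 4 genes of each list past 2-fold in any comparison (the 2 largest where none passed), and the 5 genes nearest to Mt1 and to Mt2. Some lists share genes. Xist and Eif2s3y were added after their values were seen. Promoter sequences are RefSeq's, build GRCm38.p6; the arrays name no build.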

Additional observations from a re-analysis of the deposited data

Results flagged for a closer look

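Member probe sets above the floor on every array were picked out when TNF moved them in opposite directions in the genotypes. With 1 array a group this difference was not tested. For the brighter Atp7a probe set the TNF response in knockout minus that in wild-type cells was 0.52 on the log2 scale, from 0.47 in knockout and -0.05 in wild-type cells. With equal medians the wild-type value turned to 0.24 and the difference was 0.28. For the dimmer Atp7a probe set the difference was -0.51, the reverse of its partner, from -0.05 in knockout and 0.47 in wild-type cells. With equal medians its knockout value was 0.0, its wild-type value 0.75 and its difference -0.75. The -0.05 of each Atp7a probe set is within the SD of a difference between 2 arrays, 0.27 for the brighter and 0.33 for the dimmer. For Commd1 the difference was -0.43, from -0.13 in knockout and 0.30 in wild-type cells. Both values are within the 0.31 that the fit gives as the SD of a difference between 2 arrays. The wild-type value was above that SD with quantile normalization (0.46) and with equal medians (0.58). The difference was then -0.58 and -0.67.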

How the results depend on the processing

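No paired analysis was possible because each group has 1 array and the labels give no replicate numbers. With the floor at the 20th percentile, 2 member probe sets passed 2-fold with TNF in the knockout, 1 in wild-type, and 2 between unstimulated genotypes. With log2(signal + 16) and no floor these were 2 in the knockout and 2 between unstimulated genotypes, and 1 passed for the difference of response. Quantile normalization and equal medians each gave 1 with TNF in wild-type cells, which was Cp. Among probe sets above the floor on all 4 arrays 0 passed between genotypes with TNF, since Cp is then left out. Calls for TNF in limma numbered 96, against 177 with quantile normalization, 493 with equal medians (where the prior degrees of freedom were infinite), 215 among probe sets above the floor on all arrays and 15 with no intensity trend. Genotype calls numbered 1596, against 1049 with no trend. Prior degrees of freedom were 5.37 in the main fit and 6.64 with quantile normalization. They were 9.28 among probe sets above the floor on all arrays and 3.45 with no trend. Beyond the leaving out of Cp, the causes of these changes were not tested. Equal medians moved the median log2 ratio of all probe sets by 0.27 for TNF in wild-type cells and by -0.19 between genotypes with TNF. Signals near the floor limit Cp and 3 probe sets of Ccs.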
